A study of Mus musculus with 6 samples.

Results

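Occupancy of promoters by Ezh2 was compared between mouse embryonic stem (ES) cells in which, per their labels, Brca1 was targeted or deficient. They were R1 cells transfected with siRNA specific for Brca1, with 1 array, and PL2F8 cells, labelled a Brca1 deficient line, with 2 arrays. These 3 arrays were taken by their labels from the 6 of the series, and 18545 of the 18614 promoter tiles on the array, those with at least 5 probes, were measured on each. The R1 cells were harvested 48 hours after transfection, whereas PL2F8 is labelled Brca1 deficient as a line. The other 3 arrays, from R1 cells given control siRNA (1 array) and from AB2.2 cells with wild-type Brca1 (2 arrays), stand beside the comparison as cells with Brca1 present.

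All the cells were grown on gelatin in medium with serum and LIF, a cytokine that keeps ES cells undifferentiated, and no drug or other agent is given for any of them. PL2F8 and AB2.2 are of strain 129/SvEvBrd-Hprtb-m2. The sources used here name neither the Brca1 alleles of PL2F8, nor the number of clones behind each line, nor the strain of R1. Each array set DNA precipitated with an Ezh2 antibody and labelled with Cy5 against input DNA of the same cells labelled with Cy3, both amplified by ligation-mediated PCR, and no array had the dyes swapped. The arrays measured bound DNA and not RNA or protein, so the loss of Brca1 was not checked in either line, and neither Brca1 nor Ezh2 has a tile that the files name. Cell line and way of losing Brca1 cannot be told apart in these samples. No label states separate cultures for the duplicate arrays, so a p-value here reflects only how far these arrays spread, which may be a technical matter.

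Ezh2 is the subunit of Polycomb repressive complex 2 that methylates a lysine of histone H3, a mark of silenced genes. In ES cells the complex sits mainly at CpG-rich promoters of genes that direct development, such as the Hox genes, which are off in these cells and are turned on in particular tissues later. Brca1 is a tumour suppressor that acts in repair of DNA breaks by homologous recombination and works as a ubiquitin ligase, and the question put to these samples was whether its loss alters where Ezh2 is bound.

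Values are log2 ratios of precipitated over input DNA, as deposited, with the median of all probes of the array subtracted and averaged over the probes of a tile. A tile spans about one promoter and its surroundings, with a median length of 4001 bp and a median of 38 probes. Ezh2 was counted as held at a tile with a value of at least 1, and as held on one side only where the other side was under 0.5 on every array. Each difference is R1 Brca1 siRNA minus the mean of PL2F8.

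The promoters of 6 genes are printed as examples of the 3 patterns described in the results, with every CG dinucleotide in capitals, since Polycomb repressive complex 2 is known for sitting at CpG-rich DNA. They are the genes with the largest difference among tiles held with R1 Brca1 siRNA only (Klk4, Mall) and in PL2F8 only (Mthfd2l, Klhl31), and with the highest values among tiles held in both (Prdm12, Pcdh7), taking genes with a single promoter in the RefSeq table. Each sequence runs from 250 bases before the gene's start to 50 after it, 5′ to 3′ on the gene's strand, from RefSeq on build GRCm38.p6. These coordinates are not those of the array tiles, whose build the sources used here do not name.
Klk4, chr7:43880910-43881209, plus strand: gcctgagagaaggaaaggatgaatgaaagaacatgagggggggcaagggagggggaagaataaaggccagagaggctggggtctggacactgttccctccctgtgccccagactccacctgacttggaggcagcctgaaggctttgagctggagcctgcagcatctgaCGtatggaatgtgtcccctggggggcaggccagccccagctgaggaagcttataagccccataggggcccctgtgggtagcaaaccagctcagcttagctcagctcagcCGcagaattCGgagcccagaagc
Mall, chr2:127729848-127730147, minus strand: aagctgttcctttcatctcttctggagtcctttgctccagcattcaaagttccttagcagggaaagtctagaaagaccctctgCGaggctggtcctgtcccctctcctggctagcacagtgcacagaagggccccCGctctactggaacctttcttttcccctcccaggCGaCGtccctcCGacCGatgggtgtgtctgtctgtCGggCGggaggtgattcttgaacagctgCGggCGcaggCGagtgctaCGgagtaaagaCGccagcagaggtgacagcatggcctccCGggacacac
Mthfd2l, chr5:90930946-90931245, plus strand: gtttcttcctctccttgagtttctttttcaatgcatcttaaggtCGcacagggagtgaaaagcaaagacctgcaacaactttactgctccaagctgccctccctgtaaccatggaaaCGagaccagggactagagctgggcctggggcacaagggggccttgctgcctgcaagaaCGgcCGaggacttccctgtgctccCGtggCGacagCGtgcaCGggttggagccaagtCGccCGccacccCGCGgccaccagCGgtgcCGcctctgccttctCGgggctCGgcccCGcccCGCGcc
Klhl31, chr9:77636482-77636781, plus strand: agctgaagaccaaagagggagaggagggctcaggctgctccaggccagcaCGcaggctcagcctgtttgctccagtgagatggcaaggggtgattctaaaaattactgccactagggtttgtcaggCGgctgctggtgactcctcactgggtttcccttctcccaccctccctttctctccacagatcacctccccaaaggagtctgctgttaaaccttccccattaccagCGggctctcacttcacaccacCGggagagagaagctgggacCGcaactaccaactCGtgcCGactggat
Prdm12, chr2:31639787-31640086, plus strand: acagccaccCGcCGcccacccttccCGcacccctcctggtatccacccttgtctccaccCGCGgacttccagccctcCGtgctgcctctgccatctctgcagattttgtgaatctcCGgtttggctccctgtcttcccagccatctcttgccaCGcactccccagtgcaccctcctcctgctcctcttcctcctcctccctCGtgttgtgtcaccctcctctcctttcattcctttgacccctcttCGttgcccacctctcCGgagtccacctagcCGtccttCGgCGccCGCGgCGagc
Pcdh7, chr5:57717831-57718130, plus strand: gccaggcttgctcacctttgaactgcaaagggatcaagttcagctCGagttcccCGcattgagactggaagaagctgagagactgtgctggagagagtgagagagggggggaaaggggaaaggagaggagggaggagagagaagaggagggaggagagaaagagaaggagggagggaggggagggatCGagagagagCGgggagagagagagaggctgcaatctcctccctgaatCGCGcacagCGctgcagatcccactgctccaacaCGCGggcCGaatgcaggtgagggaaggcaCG
The sequences hold 3, 14, 19, 7, 17 and 11 CG in the order printed. Over all 32851 promoters of the table the median was 7 CG (quartiles 3 and 20) and 94.6% held at least 1. CG counts were not compared between sets of tiles, because 77.3% of the named genes (7429) could be matched to the table, under the 80% set as a minimum.

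The Brca1 siRNA array differed from PL2F8 by far more than the PL2F8 duplicates differed from each other. Across the 18545 tiles, the SD of the difference was 0.254 against PL2F8 replicate 1 and 0.251 against replicate 2, and it was 0.0574 between the PL2F8 replicates. A difference of at least 0.5 was seen at 1094 tiles (5.90%) against replicate 1, at 973 tiles (5.25%) against replicate 2, and at 0 tiles between the replicates. The AB2.2 duplicates were less alike than those of PL2F8, with an SD of 0.0932 and 8 tiles past 0.5. Most of the binding pattern was nevertheless common, with a Pearson r of 0.922 to each PL2F8 array over 18545 tiles, against 0.997 between the PL2F8 arrays. These tiles share an array and a probe set and are not independent replicates. The Brca1 siRNA array was nearer to the array of R1 cells with control siRNA (r of 0.951, SD of the difference 0.200, 374 tiles past 0.5) than to either PL2F8 array.

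**Figure D1:**
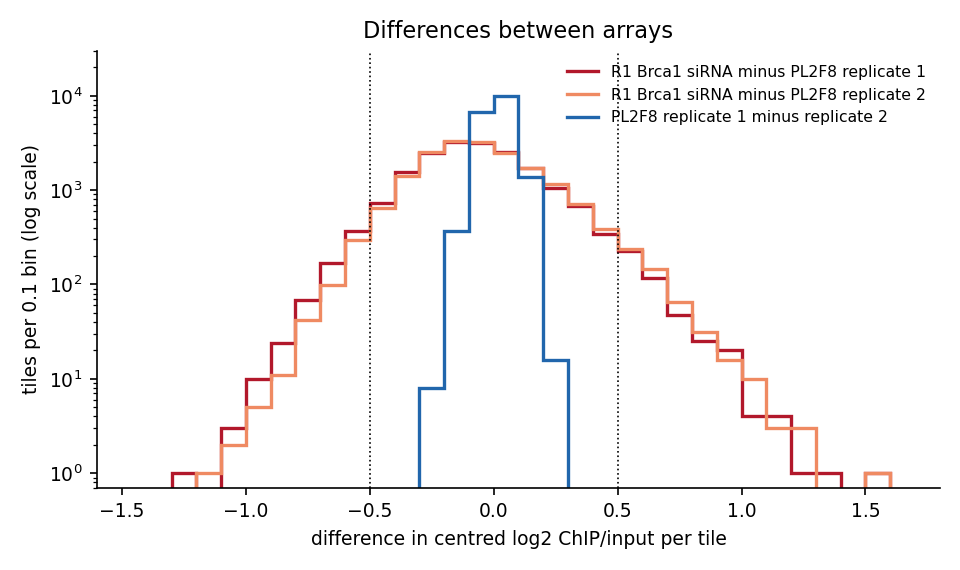
Number of tiles (y, log scale) by the difference in centred log2 ratio between arrays (x), for R1 Brca1 siRNA minus each PL2F8 array and for PL2F8 replicate 1 minus replicate 2. The R1 differences reach beyond 0.5 on both sides (1094 and 973 tiles), whereas no tile of the PL2F8 pair does.

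Ezh2 was held at 2005 tiles on the Brca1 siRNA array and at 1982 tiles on both PL2F8 arrays. Of these, 1645 tiles (8.87% of those measured) were the same, which is 82.0% of the tiles held with Brca1 siRNA and 83.0% of those held in PL2F8. Ezh2 was held only with Brca1 siRNA at 28 tiles and only in PL2F8 at 17 tiles. A further 652 tiles lay between the limits, 332 held with Brca1 siRNA and 320 held on both PL2F8 arrays, with the other side neither held nor under 0.5 on every array. The remaining 16203 tiles were held neither with Brca1 siRNA nor on both PL2F8 arrays. Of all tiles, 198 were at 1 or more on 1 PL2F8 array and under 1 on the other, with no tile differing by 0.5 between the duplicates.

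**Figure D2:**
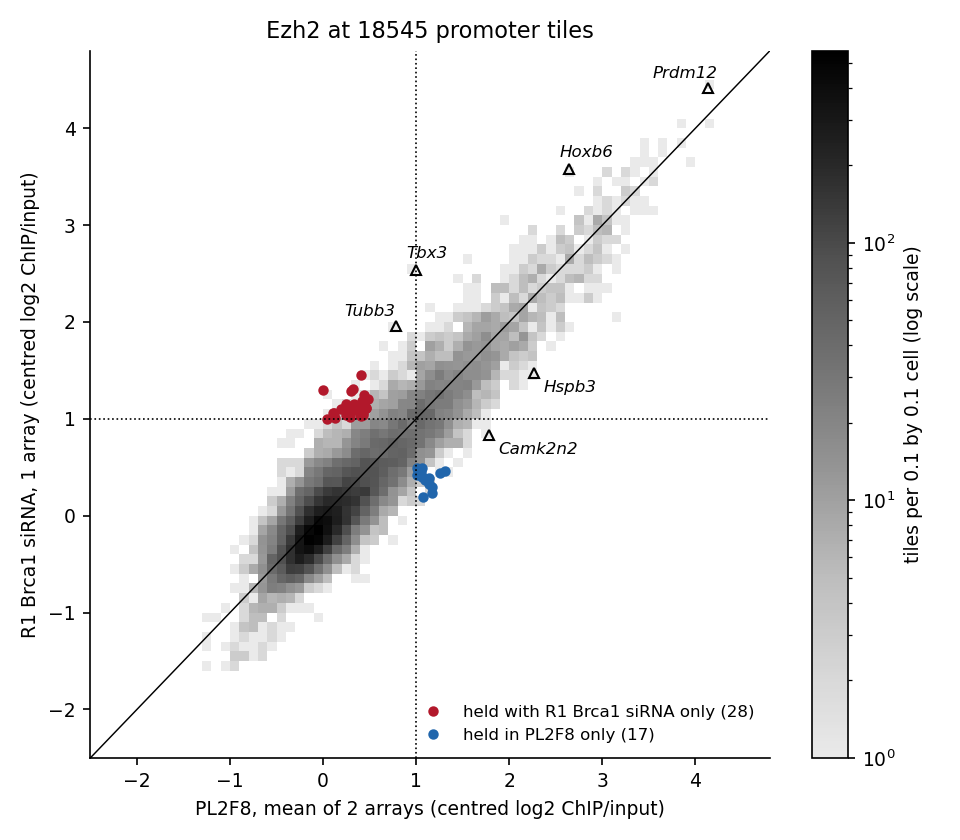
Density of tiles by their PL2F8 mean (x) and R1 Brca1 siRNA value (y), both centred log2 ratios, with the held limit and the line of equal values drawn and tiles held on one side only as coloured points. The tiles run along the diagonal, with 1645 held in both, 28 held with R1 Brca1 siRNA only and 17 held in PL2F8 only.

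The tiles held in both carried about the same amount of Ezh2 on either side. Their median was 1.57 with Brca1 siRNA, against 1.63 and 1.54 in PL2F8, with a median difference of -0.02 (quartiles -0.20 and 0.17). The same tiles had medians of 1.54 in R1 control siRNA and of 1.31 and 1.20 in AB2.2, and 1539 of the 1645 were also held on the R1 control array and 1099 on both AB2.2 arrays. Over all 6 arrays, 1083 tiles were held on every one.

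The highest tiles in both were mostly those of transcription factors that direct development, with an adhesion protein and a potassium channel among them. Prdm12, a factor needed by pain-sensing neurons, stood at 4.41 with Brca1 siRNA, against 4.19 and 4.08 in PL2F8. Pcdh7, a protocadherin of cell adhesion, stood at 4.05 with Brca1 siRNA, against 4.23 and 4.09 in PL2F8. Sim2, a basic helix-loop-helix factor, had 4.01 with Brca1 siRNA, against 3.90 and 3.79 in PL2F8. Kcnk9, a potassium channel, had 3.87 with Brca1 siRNA, against 3.96 and 3.79 in PL2F8, so its Brca1 siRNA value lay between the duplicates. Hoxd11, Hmx2, Six3, Barx2, Gfi1 and Olig2 made up the rest of the 10 highest, and none of the 10 passed the test described next.

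A tile was called where limma's adjusted p, over all 18545 tiles and from a fit of all 6 arrays in 4 groups, was under 0.05 and the difference was at least 0.5. The single Brca1 siRNA array was assumed to vary like the PL2F8 and AB2.2 pairs. By this rule 477 tiles were higher with Brca1 siRNA (2.57%) and 545 were lower (2.94%), 5.51% in either direction. With no test, the Brca1 siRNA array lay above both PL2F8 arrays at 6224 tiles (33.6%) and below both at 11053 (59.6%). The adjusted p alone passed 3189 tiles as higher (17.2%) and 6676 as lower (36.0%), and the median of all tiles lay at -0.08. The balance of higher and lower calls moved with the scaling: quantile normalization gave 653 higher and 278 lower, centring each array on tiles with no listed peak gave 651 and 322, and dividing each array by its spread gave 311 and 700. All 477 higher and all 545 lower tiles kept their sign under these 3 scalings. Against PL2F8 replicate 1 alone, whose array name falls in the same number series as the R1 arrays, 442 tiles were higher and 640 lower.

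Most calls lay below the level counted as held. Of the 477 higher tiles, 297 were held on neither side, 67 were held in both, 85 were in between and 28 were held with Brca1 siRNA only. Their medians were 0.79 with Brca1 siRNA, against 0.12 and 0.10 in PL2F8. Of the 545 lower tiles, 398 were held on neither side, 69 were held in both, 61 were in between and 17 were held in PL2F8 only. Their medians were -0.10 with Brca1 siRNA, against 0.52 and 0.49 in PL2F8. A peak listed by the authors on any of the 3 arrays covered 382 of the higher tiles (80.1%) and 348 of the lower (63.9%), against 41.9% of all tiles. Among the 1645 tiles held in both, 67 were called higher and 69 lower, and 1509 were not called.

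The largest higher difference was at Tbx3, a T-box transcription factor of limb and heart development that also acts in ES cell self-renewal. Its tile (chromosome 5, 120117477 to 120121477 in the files' coordinates) had 2.54 with Brca1 siRNA, against 0.99 and 1.00 in PL2F8. The difference of 1.54 ± 0.09 (SE, limma adjusted p = 0.000389) is a 2.91-fold higher ratio. R1 cells with control siRNA had 2.64 at Tbx3, and AB2.2 had 1.48 and 1.26.
Klk4, a kallikrein protease of tooth enamel (chromosome 7, 51133341 to 51137341), had 1.29 with Brca1 siRNA, against -0.03 and 0.03 in PL2F8. The difference was 1.29 ± 0.05 (SE, limma adjusted p = 0.000245), a 2.45-fold higher ratio, with 0.46 in R1 control and -0.05 and -0.08 in AB2.2. Klk4 was thus at background in PL2F8 and AB2.2 and part of the way up in R1 control cells.
Tubb3, a neuronal tubulin, had 1.96 with Brca1 siRNA, against 0.79 and 0.77 in PL2F8. Syt13, a synaptotagmin, had 1.76 with Brca1 siRNA, against 0.70 and 0.67 in PL2F8. In both genes the R1 control array was again above AB2.2, with 1.37 against 0.43 and 0.16 for Tubb3 and 1.35 against 0.62 and 0.60 for Syt13.
Dlk1, an imprinted gene for a Notch-like ligand, had 2.62 with Brca1 siRNA, against 1.63 and 1.54 in PL2F8. The tile of Vax2, a homeobox factor of the ventral eye that shares it with the antisense genes Vax2os1 and Vax2os2, had 3.02 with Brca1 siRNA, against 2.07 and 1.92 in PL2F8. Cdx1, a homeobox factor of the gut, had 2.47 with Brca1 siRNA, against 1.51 and 1.39 in PL2F8, and Pdlim4 had 2.14, against 1.16 and 1.12. Mall, Arhgap27, Sdr39u1 and Rhox7 completed the 12 largest, and Rhox7, a member of an X-linked family of near copies, is reported as uncertain, since 12 of its 40 probes carry a count of 1 in the probe table, whose meaning the files do not state.

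The lower tiles were led by Rn4.5s, a repeated small RNA gene with 5 probes of which 1 carries that count, at 2.03 with Brca1 siRNA against 3.26 and 3.01 in PL2F8. Its value is uncertain for that reason. Camk2n2, an inhibitor of calcium/calmodulin-dependent kinase (chromosome 16, 20620551 to 20624551), had 0.84 with Brca1 siRNA, against 1.81 and 1.75 in PL2F8. The difference was -0.94 ± 0.06 (SE, limma adjusted p = 0.000389), and R1 control had 1.02 and AB2.2 had 1.00 and 0.91, so that PL2F8 stood above all other arrays.
Wipf1, which acts in assembly of the actin cytoskeleton, had 0.52 with Brca1 siRNA, against 1.49 and 1.38 in PL2F8, with 0.52 in R1 control and 0.45 and 0.50 in AB2.2. Notum, a secreted enzyme that inactivates Wnt proteins, had 0.66 with Brca1 siRNA, against 1.62 and 1.45 in PL2F8. Sema5b, an axon guidance protein, had 1.35 with Brca1 siRNA, against 2.23 and 2.11 in PL2F8. PL2F8 was again the higher of all the lines at Wipf1, Notum and Sema5b.
Hspb3, a small heat shock protein of muscle (chromosome 13, 114453067 to 114457067), had 1.47 with Brca1 siRNA, against 2.35 and 2.18 in PL2F8, a difference of -0.79 ± 0.07 (SE). Its tile has 15 probes, against a median of 38. R1 control had 1.72 at Hspb3 and AB2.2 had 0.33 and 0.39, so among the 4 kinds of cells only AB2.2 did not hold Ezh2 there. Mthfd2l, Klhl31, Celsr1, Capn2, Pbx3 and Nbea were the others among the 12 largest lower differences.

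The 28 tiles held with Brca1 siRNA only spanned 1.00 to 1.46 with Brca1 siRNA and -0.03 to 0.50 in PL2F8. The lower end of the first range and the upper end of the second lie at the limits that define the class, and the medians were 1.11 with Brca1 siRNA and 0.33 in PL2F8. Klk4, described above, had the largest difference. Mall, a membrane protein of lipid rafts, had 1.46 with Brca1 siRNA, against 0.41 and 0.40 in PL2F8. Arhgap27, a GTPase activating protein, had 1.30 with Brca1 siRNA, against 0.32 and 0.31 in PL2F8, and Sdr39u1, a short-chain dehydrogenase, had 1.28, against 0.31 and 0.30. Krt14, a keratin of basal skin cells, had 1.00 with Brca1 siRNA, against 0.01 and 0.07 in PL2F8. Tac2, a tachykinin neuropeptide, had 1.11 with Brca1 siRNA, against 0.17 and 0.20 in PL2F8, and Prkcc, a neuronal protein kinase C, had 1.06, against 0.12 and 0.10. BC022687, Slc6a7 and Ahdc1 were the others of the 10 largest among genes represented by these tiles.
The R1 control array lay between the 2 sides at most of these 28 tiles. It ranged from 0.19 to 1.31 with a median of 0.64, with 3 tiles at 1 or more and 10 under 0.5, and AB2.2 averaged -0.27 to 0.79, with 21 tiles under 0.5 on both arrays. Mall, with 1.31 in R1 control and 0.89 and 0.69 in AB2.2, was among the 3 held in R1 control cells. Upk2, a uroplakin of the bladder lining, had 0.19 in R1 control, with 1.14 with Brca1 siRNA against 0.43 and 0.40 in PL2F8. All 28 tiles had a listed peak on the Brca1 siRNA array, and 15 and 12 of them also had one on the PL2F8 arrays, so a value under 0.5 was not the same as the lack of a peak.

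The 17 tiles held in PL2F8 only spanned 0.20 to 0.49 with Brca1 siRNA and 1.00 to 1.36 in PL2F8. Mthfd2l, a mitochondrial enzyme of folate metabolism, had 0.24 with Brca1 siRNA, against 1.24 and 1.10 in PL2F8, from a tile of 18 probes. Klhl31, a Kelch-like protein of muscle, had 0.20 with Brca1 siRNA, against 1.10 and 1.06 in PL2F8. Celsr1, a cadherin of planar cell polarity, had 0.30 with Brca1 siRNA, against 1.21 and 1.13 in PL2F8. At these 3 genes the R1 control array had 0.74, 0.49 and 0.30 in the same order. Capn2, a calpain protease, had 0.46 with Brca1 siRNA, against 1.36 and 1.26 in PL2F8. Pbx3, a homeobox partner of Hox proteins, had 0.44, against 1.30 and 1.20, and Nbea, a scaffold protein of synapses, had 0.33, against 1.16 and 1.12. Efnb2, an ephrin ligand of arteries, had 0.39, against 1.11 and 1.06, and R1 control had 0.81. Nsun7, Sphkap and Inpp1 were the others of the 10 largest, and Sphkap, an anchoring protein of protein kinase A, had 0.38 with Brca1 siRNA, against 1.15 and 1.05 in PL2F8, and 1.11 in R1 control cells.
The R1 control array ranged from 0.30 to 1.11 at the 17 tiles with a median of 0.62, and 2 were at 1 or more. AB2.2 averaged -0.39 to 1.33, with 5 tiles under 0.5 on both arrays and 1 held on both. The latter was Panx2, with 1.36 and 1.29 in AB2.2, against 1.02 and 1.03 in PL2F8 and 0.44 with Brca1 siRNA. A peak was listed at 14 of the 17 tiles on the Brca1 siRNA array and at 17 on each PL2F8 array. Without PL2F8 replicate 2 the 17 tiles became 30, and without replicate 1 they became 18, whereas the 28 held with Brca1 siRNA only became 28 and 41, so each count was set in part by the choice of replicate.

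**Figure D3:**
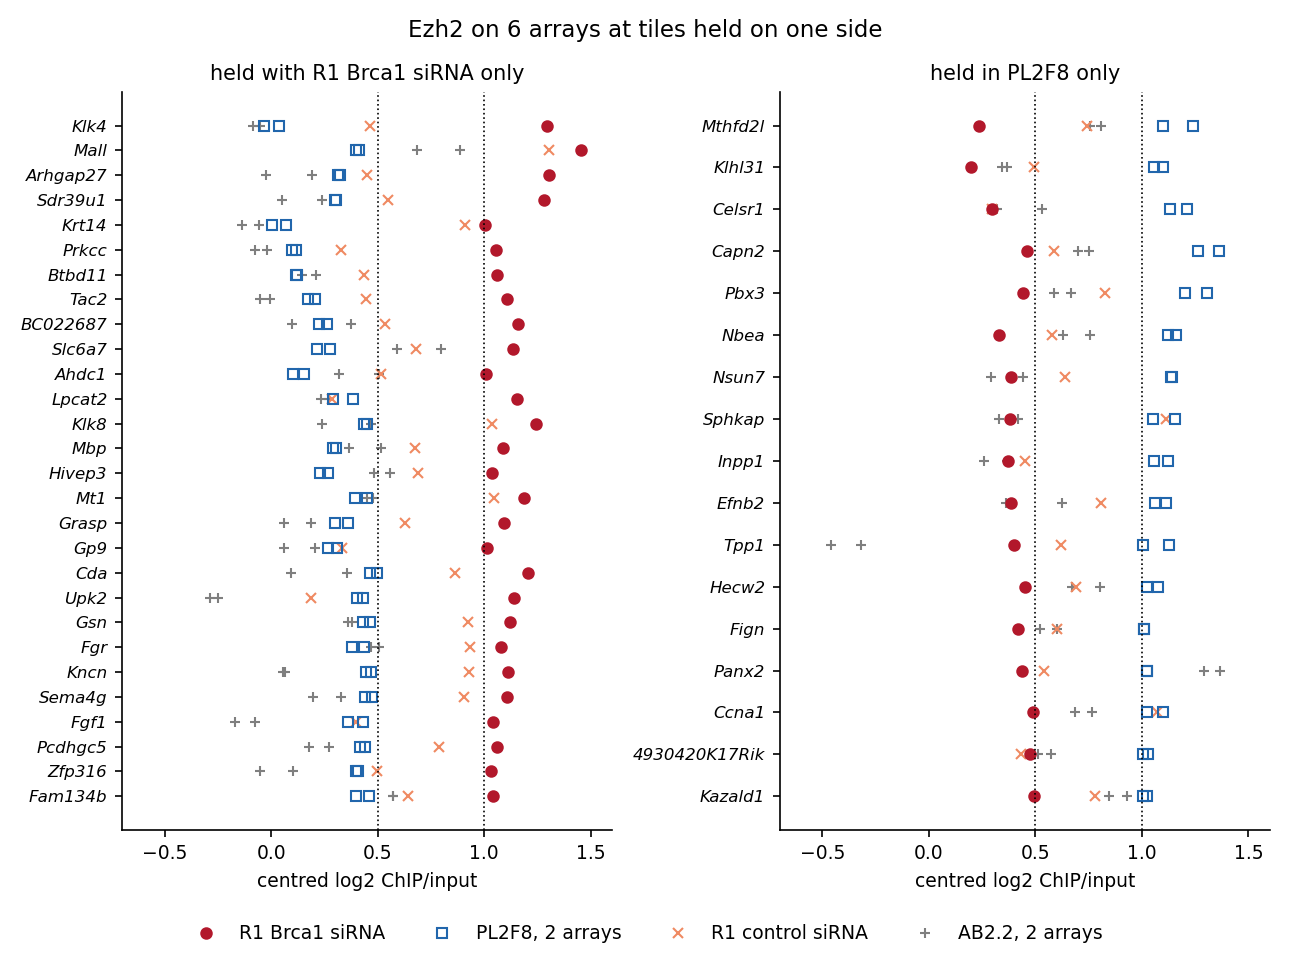
Centred log2 ratios (x) of the tiles held on one side only, 1 tile to a line, for R1 Brca1 siRNA, PL2F8, R1 control siRNA and AB2.2, 1 point an array. The Brca1 siRNA points and the PL2F8 points stand on opposite sides of the 0.5 and 1 limits, and the R1 control points lie between 0.19 and 1.31.

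The difference between R1 Brca1 siRNA and PL2F8 was set beside the difference between R1 control siRNA and AB2.2, both with Brca1 present. These 2 differences share no array. Both AB2.2 arrays have names in another number series than the R1 arrays, whereas PL2F8 has 1 array in each. Cell line and number series therefore cannot be told apart in R1 control minus AB2.2, nor in any value built on it. At the 477 tiles called higher, the median of R1 control minus AB2.2 was 0.45, and it was above 0 at 446 tiles (93.5%) and at least 0.5 at 207 (43.4%). Over all tiles that median was 0.05, with 56.4% above 0. At the 545 tiles called lower, the median of R1 control minus AB2.2 was -0.01, with 260 tiles (47.7%) above 0. The AB2.2 arrays had fewer listed peaks, 5482 and 4864, against 6257 for R1 control. Tiles that hold Ezh2 had a higher R1 control minus AB2.2 in general, with a median of 0.34 over the 1645 tiles held in both. Among these, the median was 0.53 at the 67 called higher and 0.04 at the 69 called lower. The medians at the lower tiles were -0.10 with Brca1 siRNA, 0.52 and 0.49 in PL2F8, 0.09 in R1 control, and 0.14 and 0.10 in AB2.2. Across all 18545 tiles the 2 differences correlated with a Pearson r of 0.370, as a description over tiles that share arrays within each difference.
The difference between the 2 differences was itself tested in the same fit. It passed at 330 tiles as higher (1.78%) and at 2306 tiles as lower (12.4%). With quantile normalization these were 790 higher and 948 lower, after scaling by spread 312 and 2590, and with centring on tiles with no listed peak 305 and 2483, so lower tiles outnumbered higher ones under each, by a margin that changed with the scaling. Of the 477 tiles called higher, 80 passed this test as higher, and of the 545 called lower, 338 passed it as lower. The difference by which these tiles were called is part of the value tested, so their passing is in part set by that choice. Klk4 passed as higher (0.76, limma adjusted p = 0.000725) and Camk2n2 as lower (-1.01, limma adjusted p = 0.000603), whereas Tbx3 did not pass (0.27, limma adjusted p = 0.103).

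The peaks that the authors listed for each array divided the tiles differently from the held limits. Of the 28 tiles held with Brca1 siRNA only, 12 had a peak on all 3 arrays and 13 on the Brca1 siRNA array alone. Of the 17 held in PL2F8 only, 14 had a peak on all 3 arrays and 3 on both PL2F8 arrays alone. A tile counted as having a peak where one overlapped it by at least 1 bp. The lists held 6432 peaks for Brca1 siRNA, against 6386 and 6273 for PL2F8. Peaks were listed at 4781 tiles on all 3 arrays, at 1260 on the Brca1 siRNA array alone and at 1061 on both PL2F8 arrays alone, with 667 tiles in other combinations and 10776 with none. Peaks and tile values come from the same probe ratios, so the direction of the differences in these sets follows from the division and is no separate support. The tiles with a peak on the Brca1 siRNA array alone had a median difference of 0.20. Of these, 174 were called higher (13.8%, against 2.57% of all tiles) and 1 lower. A peak was also listed at 37.5% of them on the R1 control array and at 10.9% on both AB2.2 arrays. The tiles with a peak on both PL2F8 arrays alone had a median difference of -0.24, with 1 called higher and 117 lower, and 28.9% also had a peak on the R1 control array and 20.4% on both AB2.2 arrays. Among the tiles with a peak on all 3 arrays, the median difference was -0.05, and 194 were called higher (4.06%) and 203 lower (4.25%). At an FDR of 0.05 or less in the authors' lists, 2885 tiles had a peak on all 3 arrays, 887 on the Brca1 siRNA array alone and 696 on both PL2F8 arrays alone. The 1260 and 1061 tiles are not comparable in number with the 28 and 17 held on one side only. A peak is either listed or not, whereas those tiles needed at least 1 on one side and under 0.5 on the other.

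Binding was less sharply peaked with Brca1 siRNA than in PL2F8 at the genes that held Ezh2 in both. Over the 1498 such genes with probes in both windows read, the mean just downstream of the start (0 to 500 bp) was 2.73 with Brca1 siRNA, against 3.24 and 3.08 in PL2F8. Far upstream (3000 to 2000 bp before the start) it was 0.86 with Brca1 siRNA, against 0.72 and 0.68 in PL2F8. The step between these windows was 1.88 with Brca1 siRNA, against 2.51 and 2.40 in PL2F8. It was below both PL2F8 arrays at 1158 genes (77.3%) and above both at 256. The median difference in step was -0.58, against 0.12 between the PL2F8 duplicates, and it ranged from -0.48 with quantile normalization to -0.82 after scaling by spread. The step was 1.93 in R1 control cells and 2.06 and 1.68 in AB2.2, so R1 control and AB2.2 did not part in this way. No test was made of the step, since genes of one array are not replicates.
The sets held on one side showed the difference at both windows. These genes were chosen by the means of tiles that include both windows, so the direction follows in part from that choice and is no separate support. At the 27 genes held with Brca1 siRNA only, the upstream window averaged 0.55 with Brca1 siRNA, against -0.07 and -0.09 in PL2F8, and the start 1.77, against 1.12 and 1.09. At the 17 genes held in PL2F8 only, the upstream window averaged -0.27 with Brca1 siRNA, against 0.30 and 0.24 in PL2F8, and the start 1.37, against 2.04 and 1.94.

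**Figure D4:**
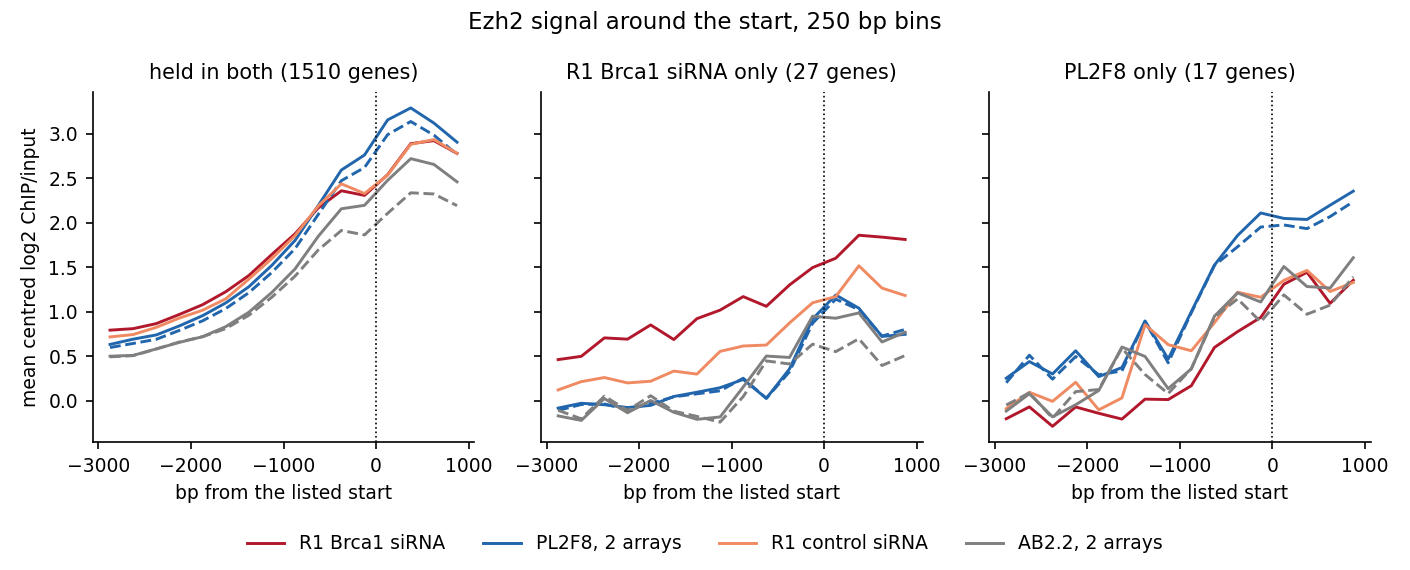
Mean centred log2 ratio (y) in 250 bp bins by distance from the transcription start in bp (x), for genes held in both, with R1 Brca1 siRNA only and in PL2F8 only, 1 line an array. At genes held in both, the Brca1 siRNA line is lower at the start (2.73 against 3.24 and 3.08 at 0 to 500 bp, over the 1498 of these 1510 genes with both windows) and higher far upstream (0.86 against 0.72 and 0.68).

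Genes were then read by family, against 420 genes called higher (4.37%) and 395 called lower (4.11%) among all 9614 named genes, whose median difference was -0.05. A gene is named where the files list it beside a peak on at least 1 of the 6 arrays. Families that mostly lack Ezh2 are thus read only at members with a peak on some array, such as 6 of 28 housekeeping and 17 of 56 DNA repair genes.
Hox genes, the homeobox factors that pattern the body axis, had the highest median of the 20 families as centred here, but not after scaling by spread (Hox 0.068, fibroblast genes 0.073) or with the highest running mean of 5 probes (Hox 0.061, fibroblast genes 0.16). Of the 39 Hox genes measured, 37 were held in both, 8 were called higher and 0 lower, and 34 had a difference above 0, with a median of 0.27 (quartiles 0.15 and 0.47). Their mean was 2.42 with Brca1 siRNA, against 2.18 and 2.09 on the PL2F8 arrays, with 2.49 in R1 control cells and 1.90 ± 0.09 in AB2.2 (SD, n = 2). The direction of the Hox calls depended on the scaling: 16 were higher and 0 lower with quantile normalization, and 1 was higher and 2 lower after scaling by spread, where the Hox median was 0.07 and that of all tiles -0.09.
The clusters differed in their values. The median difference was 0.44 over 10 Hoxb genes with 4 called higher, 0.28 over 11 Hoxa genes with 3 called higher, 0.27 over 9 Hoxc genes with 1 called higher, and 0.06 over 9 Hoxd genes with 0 called. Whether the clusters differed was not tested. Hoxb6 had the largest Hox difference, with 3.58 with Brca1 siRNA, against 2.70 and 2.59 in PL2F8, and 3.58 in R1 control cells. Hoxb2, Hoxb1 and Hoxb13 had differences of 0.73, 0.70 and 0.61, Hoxc5 had 0.67, Hoxa13 had 0.63, and Hoxa10 and Hoxa11, which share a tile, had 0.62. The lowest were Hoxd13 at -0.27 and Hoxd11 at -0.25, neither called. Of genes numbered 1 to 8, which act toward the head end, 4 of 23 were called higher, and of those numbered 9 to 13, which act toward the tail and limbs, 4 of 16.

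Other regulators of development moved in both directions. Of 107 homeobox genes outside the Hox clusters, 4 were called higher and 2 lower, with a median of 0.03. Vax2, Cdx1, Gsx2 (0.56) and Irx1 (0.51) were higher, while Irx2 (-0.71), a neighbour of Irx1 in the Iroquois family, was among the lower. Irx2 had 1.46 with Brca1 siRNA, against 2.29 and 2.06 in PL2F8. Irx1 had 2.49 with Brca1 siRNA, against 2.07 and 1.89 in PL2F8, so these relatives lay on opposite sides.
Of 76 factors of mesoderm and endoderm, 4 were called higher (Tbx3, Osr1, Sox17 and Tbx5) and 7 lower (Tbx18, Foxa1, Foxc2, Sox11, Sox3, Foxl2 and Foxf2), with a median of -0.04. The T-box factors were on both sides, with Tbx3 at 1.54 and Tbx18 at -0.70. Foxa1, a factor of liver and other endoderm, was at -0.66, Foxc2 at -0.62, Foxl2, a factor of the ovary, at -0.52 and Foxf2 at -0.51. Sox17, an endoderm factor, was at 0.69, and Sox11 and Sox3, factors of neural progenitors, were at -0.60 and -0.57.
Of 50 neural factors, 2 were called higher and 4 lower, with a median of 0.04. Atoh8 (0.65) and Fezf2 (0.51) were higher, and Bhlhe22 (-0.63), Pou3f3 (-0.60), Neurod1 (-0.57) and Hes5 (-0.50), all factors of neuronal differentiation or of its timing, were lower. Of 76 neurotransmitter receptor genes, 7 were called higher and 3 lower, with a median of -0.01. Grm4 (0.68) and Sstr3 (0.66), a glutamate and a somatostatin receptor, were highest, and Htr1b (-0.56), Gabra2 (-0.51) and Gabrb1 (-0.50), for serotonin and GABA, were lowest. Of 11 protocadherins, 0 were called higher and 2 lower, Pcdh10 at -0.63 and Pcdh17 at -0.62.

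Of 71 signalling genes, 4 were called higher and 4 lower, and their median was -0.02. The ligands Wnt10a (0.70), Fgf1 (0.64) and Lefty1 (0.62) and the Wnt antagonist Sfrp1 (0.61) were higher. The ligands Fgf16 (-0.62), Fgf15 (-0.55) and Bmp8a (-0.54) and the Wnt antagonist Sfrp2 (-0.54) were lower. Sfrp1 had 1.96 with Brca1 siRNA, against 1.38 and 1.32 in PL2F8. Sfrp2 had 1.65 with Brca1 siRNA, against 2.24 and 2.14 in PL2F8. These closely related antagonists thus lay on opposite sides.

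Among the inhibitors of cell division and tumour suppressors, 0 of 15 were called higher and 3 lower. Cdkn2b, an inhibitor of cyclin-dependent kinases, had -0.13 with Brca1 siRNA, against 0.67 and 0.54 in PL2F8. Cdkn2c, another such inhibitor, had a difference of -0.62. Cdkn2a, the neighbour of Cdkn2b and a known Polycomb target, had 1.32 with Brca1 siRNA, against 1.02 and 0.97 in PL2F8, and at 0.33 was not called. Cdkn2a and Cdkn2b therefore had differences of opposite sign.
Of 23 Polycomb subunit genes, 1 was called. It was Jarid2, a partner of Polycomb repressive complex 2, at -0.09 with Brca1 siRNA against 0.52 and 0.52 in PL2F8, a difference of -0.60. Bmi1 (-0.38), Phc2 (0.29) and Suz12 (0.19) had smaller differences that were not called. Of 17 genes of DNA repair, where Brca1 acts, 0 were called, with a median of -0.07; the furthest from 0 were Brca2 at -0.47 and Ercc1 at -0.42. Of 16 interferon response genes, which transfected RNA can induce, 1 was called higher (Mx1, 0.56) and 1 lower (Bst2, -0.55).

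Of 35 imprinted genes, 1 was called higher (Dlk1) and 2 lower (Sgce and Peg10, which share a tile at -0.55). Of 36 germline genes, 0 were called higher and 1 lower, Tdrd6 at -0.60. Of 43 keratin genes, 2 were called higher, Krt14 (0.96) and Krt42 (0.51), and 3 lower, and of 129 olfactory receptor genes, 6 were higher and 2 lower. Ribosomal protein and housekeeping genes had low values on both sides, and were measured only where a peak was listed beside them on some array. Of 13 ribosomal protein genes, 0 were called higher and 4 lower (Rpl26 at -0.58, Rpl23a and Rpl28 at -0.55, Rpl37 at -0.52), with a median of -0.29. The 6 housekeeping genes had a median of -0.21 with 0 called. Rpl28 had 0.03 with Brca1 siRNA, against 0.59 and 0.56 in PL2F8, below the level counted as held.

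**Figure D5:**
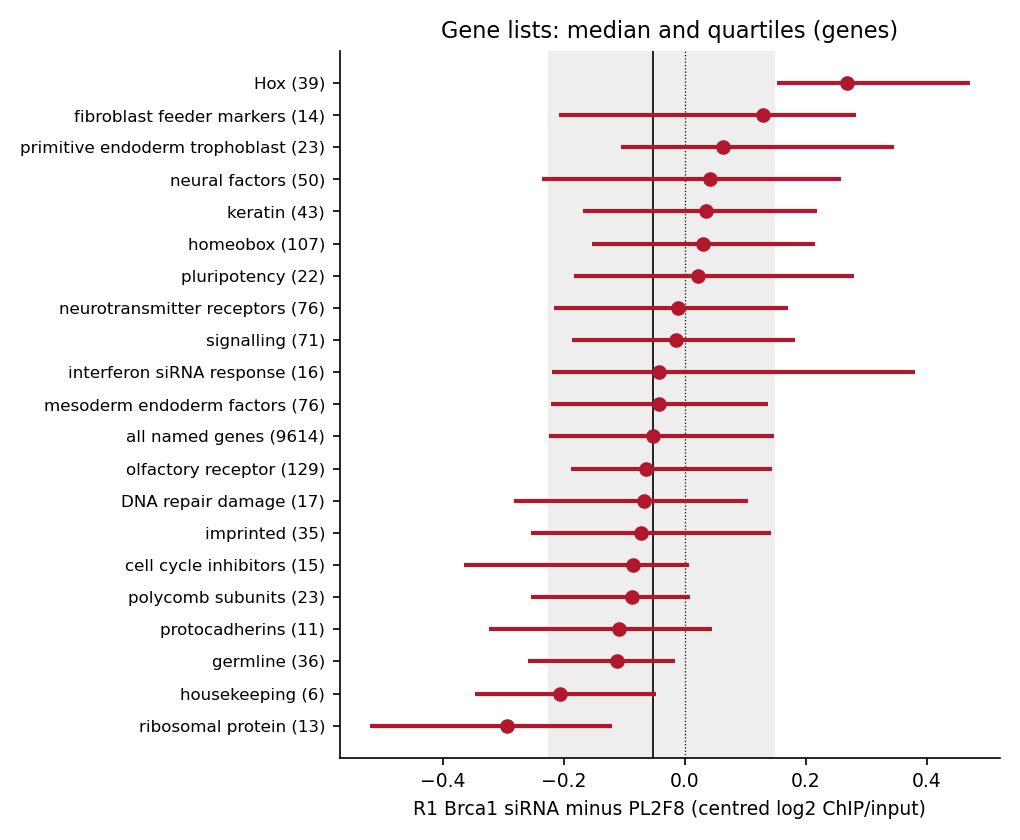
Difference in centred log2 ratio, R1 Brca1 siRNA minus PL2F8 (x), as the median (point) and quartiles (bar) over the measured genes of each family (y, number of genes in brackets), with the median and quartiles of all named genes as the vertical line and grey band. Hox genes have the highest family median (0.27) and ribosomal protein genes the lowest (-0.29), with all named genes at -0.05. After scaling by spread these ranks go to fibroblast genes (0.073) and protocadherins (-0.30). Only genes listed beside a peak on some array are measured.

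The labels of both lines as ES cells were set against genes known to be active or silent there. Pou5f1, the pluripotency factor, had -0.58 with Brca1 siRNA, against -0.56 and -0.58 in PL2F8, and -0.03 in R1 control cells. Nanog had 0.14 with Brca1 siRNA, against 0.10 and 0.08 in PL2F8, and Sox2 had 0.53, against 0.58 and 0.50. Klf4 had 0.21 with Brca1 siRNA, against 0.49 and 0.48 in PL2F8, and Utf1 had -0.15, against -0.06 and -0.07. These 5 pluripotency genes were not held on either side, and Zfp42 and Dppa4 have no named tile. Esrrb went against this, with 2.55 with Brca1 siRNA, against 1.99 and 1.96 in PL2F8, a called difference of 0.57. Over the whole list of pluripotency genes, 22 were measured, of which 2 were held in both, 3 lay in between and 17 were not held. In that list 3 were called higher, with Tbx3 (1.54) the largest, and 1 lower, and the median was 0.02.
Genes of later lineages were held in both: Gata4 had 3.31 with Brca1 siRNA, against 3.40 and 3.28 in PL2F8, Gata6 had 2.77, against 2.97 and 2.90, and Cdx2 had 2.33, against 2.05 and 1.91. Of 14 fibroblast genes, read for feeder cells, 1 was called higher (Col6a2, 0.56), with a median of 0.13, and of 23 genes of primitive endoderm and trophoblast, 1 was called higher (Sox17), with a median of 0.06. The part of other cell types in these values was not tested.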

How the data were processed

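Per the labels, the authors divided normalized precipitated by input DNA at each probe of a NimbleGen promoter array, and the deposited table gives 714900 log2 ratios an array. The peak lists deposited for each array give a false discovery rate as a fraction (highest value 0.172 to 0.198 by array) and, per the file headers, a score, the fourth highest probe's log2 ratio. The sources used here name no normalization, peak caller or genome build. Deposited medians of the arrays were 0.02 to 0.04, and the scale was checked against the peak scores. The precision is limited by the number of arrays.

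Each array was centred on its probe median and averaged over the array's own tiles with at least 5 probes. A tile took the name of a gene with a listed start inside it, or else no further than 5000 bp away, and of several tiles for a gene the one highest on average over the 6 arrays was used. Differences were tested with limma 3.58.1 in R 4.3.3 (lmFit, then eBayes; two-sided p-values, adjusted by Benjamini-Hochberg over the 18545 tiles), after the fit had been tested on simulated data. The simulation gave the single R1 arrays the spread of the duplicates, so it could not check that assumption. Named were the 12 largest differences each way among called tiles with a side held, the 10 highest tiles held in both, up to 10 tiles held on each one side, the 2 highest and 2 lowest members of each of 20 gene lists, Hox genes, Pou5f1, Nanog, Sox2 and Cdkn2a. Upk2, Col6a2, Irx1 and further called list members and ES cell markers were named after their values were seen. Some genes of these lists are counted but not reported by name here. The comparison and the lists were chosen with earlier results of these data known. The alternatives were other scalings, centrings, tile summaries, thresholds, filters and blocks, and leaving out each replicate. Tables came from pandas 2.3.3 and numpy 2.4.6 under Python 3.11.15, and figures from matplotlib 3.10.9.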

Additional observations from a re-analysis of the deposited data

Results flagged for a closer look

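Each value here is the difference of R1 Brca1 siRNA minus PL2F8 less the difference of R1 control siRNA minus AB2.2, on the log2 scale, and was tested in the limma fit (adjusted p under 0.05 and a size of at least 0.5). A negative value means that R1 stood lower against PL2F8 than it did against AB2.2. Both AB2.2 arrays have names in another number series than the R1 arrays, so cell line and number series cannot be told apart in R1 control minus AB2.2. The test passed at 330 tiles as higher (1.78% of all tiles) and 2306 as lower (12.4%). These were 790 and 948 with quantile normalization, 312 and 2590 after scaling by spread, and 305 and 2483 with centring on tiles with no listed peak. Among the 118 named genes, 55 passed, 47 below 0 and 8 above. Many of them were named for a large difference of R1 Brca1 siRNA minus PL2F8, which is part of this value, so these counts are in part set by the naming.

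The furthest below 0 was Hspb3, with 15 probes, at -2.15. It had 1.47 in R1 Brca1 siRNA against 2.35 and 2.18 in PL2F8, and 1.72 in R1 control against 0.33 and 0.39 in AB2.2, so the sign of the line difference turned. Sphkap had -1.46, Olfr282, an olfactory receptor gene, had -1.22, and the neural factor Bhlhe22 had -1.21.

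Among regulators of development, Foxa1 had -1.17, Pbx3 had -1.01, Irx2 had -0.78, Pou3f3 had -0.77, Hoxd11 had -0.72, Tbx18 had -0.69, Hoxd13 had -0.62, Hmx2 had -0.60 and Gfi1 had -0.57. All 5 protocadherins named, of 11 measured, passed below 0: Pcdh10 had -0.99, Pcdh8 had -0.86, Pcdh7 had -0.81, Pcdh17 had -0.59 and Pcdh11x had -0.58. Of receptors, channels and signalling genes, Kcnk9 had -1.03, Pdgfra and Efnb2 had -1.02, Gabra2 had -0.89, Notum had -0.84, Fgf15 had -0.82, Celsr1 had -0.75, Stat3 had -0.62 and Htr1b had -0.59. A negative value was common where Ezh2 was held: over the 1645 tiles held in both its median was -0.34, with R1 control minus AB2.2 at 0.34. The AB2.2 arrays had fewer listed peaks than R1 control (5482 and 4864, against 6257), and the part of this in these values was not tested. At Pcdh7, Kcnk9, Hmx2 and Gfi1, R1 Brca1 siRNA minus PL2F8 was only -0.11, -0.01, 0.16 and -0.06, none called. R1 control minus AB2.2 was 0.70, 1.02, 0.76 and 0.52 there.

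Of the other named genes below 0, Nsun7 had -1.03, Klhl31 had -1.02, Camk2n2 had -1.01, Wipf1 had -0.96, Mthfd2l had -0.90, Inpp1 had -0.86, Capn2 had -0.71, Nbea had -0.69, Olfr474 had -0.59, Dab2 had -0.57 and Tdrd6 had -0.52. Usp18 had -0.83 and Bst2 had -0.63 among interferon response genes. Cdkn2b had -0.65 and Cdkn2c had -0.57 among cell cycle inhibitors. Ercc1 had -0.82 in DNA repair, Ldha had -0.82 among housekeeping genes, and Rpl26 had -0.65, Rpl23a had -0.54 and Rpl3l had -0.51 among ribosomal protein genes.

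The 8 above 0 were Slc6a7 at 0.90, Ahdc1 at 0.78, Klk4 at 0.76, Arhgap27 at 0.62, BC022687 at 0.61, Sdr39u1 at 0.58, Prkcc at 0.57 and Mall at 0.53. All 8 are among the tiles held with Brca1 siRNA only, and were named for the size of a difference that is part of this value.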

How the results depend on the processing

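The calls rest on duplicates of 2 lines and 1 array of R1 Brca1 siRNA, and their number changed with the scaling and with the summary of a tile. Across the settings that kept the mean of a tile, the direction of the 1022 called tiles did not change under quantile normalization, scaling by spread or centring on tiles with no listed peak. The counts given first in each sentence are those of the setting named, and the causes of these shifts were not tested.

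With quantile normalization, 278 tiles were called lower (545 in the report), 44 were held with Brca1 siRNA only (28) and 9 in PL2F8 only (17), and the difference of the line differences passed at 790 tiles as higher (330) and 948 as lower (2306). The list medians that moved were 0.42 for Hox, 0.14 for other homeobox, 0.17 for neural factors, 0.056 for neurotransmitter receptors, 0.026 for protocadherins, 0.084 for pluripotency, 0.038 for imprinted, -0.071 for germline, 0.18 for primitive endoderm and trophoblast, -0.15 for housekeeping, -0.21 for ribosomal protein, -0.031 for olfactory receptor and 0.071 for keratin genes.

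After scaling by spread, 311 tiles were called higher (477), 17 were held with Brca1 siRNA only and 36 in PL2F8 only. The list medians were 0.068 for Hox, -0.21 for other homeobox, -0.26 for mesoderm and endoderm, -0.23 for neural factors, -0.15 for signalling, -0.12 for neurotransmitter receptors, -0.30 for protocadherins, -0.20 for Polycomb subunits, -0.25 for cell cycle inhibitors, -0.175 for imprinted, -0.15 for germline, -0.13 for primitive endoderm and trophoblast and -0.0009 for keratin genes. With centring on tiles with no listed peak, 322 tiles were called lower, 55 were held with Brca1 siRNA only and 10 in PL2F8 only, and the medians were 0.077 for pluripotency, -0.013 for DNA repair, 0.012 for interferon response, -0.0575 for germline, -0.15 for housekeeping, -0.24 for ribosomal protein, -0.0086 for olfactory receptor and 0.0897 for keratin genes.

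With the median of probes, 881 tiles were called higher and 449 lower, 979 were held in both (1645) and 67 with Brca1 siRNA only. The medians were 0.42 for Hox, 0.0725 for neurotransmitter receptors, -0.005 for Polycomb subunits, 0.045 for imprinted, -0.024 for germline, -0.095 for housekeeping, -0.13 for ribosomal protein, -0.03 for olfactory receptor and 0.115 for keratin genes. With the highest running mean of 5 probes, 2088 tiles were called higher and 3987 lower, 6707 were held in both, 472 with Brca1 siRNA only and 824 in PL2F8 only, and the difference of differences passed at 2276 tiles as higher and 4757 as lower. The medians were 0.061 for Hox, -0.23 for mesoderm and endoderm, -0.15 for neurotransmitter receptors, 0.015 for protocadherins, 0.082 for pluripotency, -0.31 for Polycomb subunits, -0.30 for DNA repair, -0.65 for cell cycle inhibitors, 0.10 for interferon response, -0.41 for germline, -0.07 for primitive endoderm and trophoblast, -0.81 for housekeeping, -0.35 for ribosomal protein, 0.056 for olfactory receptor and -0.17 for keratin genes. Under this summary alone 3 of the 118 named genes reversed: Hoxb2 to -0.37, Hoxb6 to -0.12 and Pcdh17 to 0.51.

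A held limit of 0.75 left 144 tiles held with Brca1 siRNA only and 133 in PL2F8 only, and a limit of 1.5 left 733 in both and 0 on either one side. At an FDR of 0.05 or less, 2885 tiles had a peak on all 3 arrays and 696 on both PL2F8 arrays alone. The lowest family median was that of ribosomal protein genes as centred here, but of protocadherins after scaling by spread, of cell cycle inhibitors (-0.15) with the median of probes and of housekeeping genes with the running mean. Leaving out each replicate gave 442 to 506 tiles called higher and 452 to 640 called lower. It gave 18 to 30 tiles held in PL2F8 only, the 30 without PL2F8 replicate 2. The germline median was -0.156 to -0.082 and the olfactory receptor median -0.079 to -0.0515 without each PL2F8 replicate. With the number series as a block, which leaves PL2F8 replicate 1 as the comparator, these medians were -0.156 and -0.0515. With probes of a count of 1 only, an alternative chosen after seeing the data like those of the step at the start, the olfactory receptor median was -0.077.

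No paired analysis was possible because the R1 arrays carry no replicate number. With the replicate number as a block over the AB2.2 and PL2F8 pairs alone, 477 tiles were called higher and 545 lower, and the difference of differences passed at 331 and 2317. Replicate 1 minus replicate 2 in AB2.2 and in PL2F8 correlated at r = 0.230 over 18545 tiles. Of the 118 named genes, 100 kept their side of the threshold with quantile normalization, 101 after scaling by spread, 104 with the other centring, 93 with the median of probes and 72 with the running mean.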

Other observations

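The share of tiles called differed between chromosomes. Tiles called higher made up 0.59% on chromosome 13 (4 tiles), the lowest share, and 4.60% on chromosome 12 (25 tiles), the highest. Over all tiles the share called higher was 2.57%. Tiles called lower made up 1.57% on chromosome 16 (9 tiles) and 5.05% on chromosome 8 (44 tiles), the lowest and highest shares. Over all tiles the share called lower was 2.94%. These shares were not tested.

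At Pou5f1 the Brca1 siRNA and PL2F8 arrays had almost the same negative value (-0.58 with Brca1 siRNA, against -0.56 and -0.58 in PL2F8), while R1 control and AB2.2 stood near 0 (-0.03 in R1 control, against a mean of -0.01 in AB2.2). All these values lie under the level counted as held, and how many other tiles show the same order was not counted. With 1 array of each R1 condition this was not tested.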
